A study of Rattus norvegicus with 12 samples.

Results

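Aquaporins are channel proteins that let water, and in some cases glycerol or other small solutes, cross cell membranes, and the vasopressin V2 receptor sets how much of the collecting duct's water channel reaches the cell surface. The genes described here are Avpr2, the V2 receptor gene, and Aqp1, Aqp2, Aqp3, Aqp4, Aqp7, Aqp8 and Aqp11, taken by gene name from the annotation of a rat microarray. They are 8 of the 26456 distinct gene names in the files and are read by 10 of the 30367 probes, 3 of them for Aqp4 and 1 for each of the others. All 10 probes passed the filter on dim signals, which kept 21064 probes, and none was saturated on any array. The genes were listed by name, and the Aqp4 probes were kept apart because they were known to differ in size.

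The rats were females of the inbred F344 strain, 10 weeks old, and RNA was taken from the entire left kidney. In ischemia-reperfusion injury (IRI), here unilateral, the flow of blood to a kidney is stopped and then restored. The right kidney was not injured. The groups were rats killed 7 days after IRI of the left kidney (IRI day 7), rats killed 3 days after it (IRI day 3) and sham-operated rats killed at day 7, with 4 rats and 4 arrays in each. No sham group was killed at day 3, so IRI day 3 differs from sham in time as well as in operation, and how long the ischemia lasted is not given in the sources used.

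Water reabsorbed in the proximal tubule and the thin descending limb passes through AQP1, which lies in the membranes on both sides of the cell and is also made by red cells and by endothelium of the descending vasa recta. In principal cells of the collecting duct, vasopressin binds V2 receptors on the blood side, cyclic AMP rises, protein kinase A phosphorylates AQP2, and vesicles that carry AQP2 fuse with the apical membrane. Water then leaves the cell on the blood side through AQP3 and AQP4. AQP7 is a water and glycerol channel of the straight proximal tubule, AQP8 and AQP11 are found mostly inside cells, and loss of AQP11 in mice gives cystic proximal tubules.

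The probes are 60 bases long and are placed by the files on the rat build rn4. The Aqp4 probe whose last letters are a stop codon, the Avpr2 probe that also ends on one, and the probes of Aqp7 and Aqp8 are shown, since they read the receptor, the member that was higher than sham in IRI day 7 and, between the injured groups, the member that was lower in IRI day 7 and the one with the smallest passing difference. Capitals mark the TGA that closes the probe in Aqp4 and Avpr2, and the letters of Aqp7 and Aqp8 carry no mark.
Aqp4, stop-codon probe, chr18:6630285-6630344, minus strand: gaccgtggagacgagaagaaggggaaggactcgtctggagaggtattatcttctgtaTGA
Avpr2, chrX:159823429-159823488, plus strand: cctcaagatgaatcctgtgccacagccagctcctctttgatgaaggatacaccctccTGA
Aqp7, chr5:58433937-58433996, minus strand: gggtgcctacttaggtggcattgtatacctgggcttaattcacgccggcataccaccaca
Aqp8, chr1:182335905-182335964, plus strand: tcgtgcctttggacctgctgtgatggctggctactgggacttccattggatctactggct
On the same strand as the stop-codon probe, the middle Aqp4 probe (chr18:6629662-6629721) lies 563 bases further 3′, and the 3′-most Aqp4 probe (chr18:6626431-6626490) lies another 3171 bases on. The files list the same pair of RefSeq transcripts for all 3 Aqp4 probes. The 3′-most Aqp4 probe holds a polyadenylation hexamer (AATAAA or ATTAAA) from its position 47. The Aqp2 probe (chr7:138330832-138330891, plus strand) holds such a hexamer from position 42. The remaining probes lie at chr4:84110125-84110184 for Aqp1, chr5:58501847-58501906 for Aqp3 and chr1:154974018-154974077 for Aqp11. Exon and UTR annotation of rn4 was not used here.

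Each value below is a level, the log2 signal of a probe relative to the 75th percentile of all spots on its array. That percentile averaged 502 ± 60.9 intensity units in IRI day 7, 714 ± 34.5 in IRI day 3 and 328 ± 72.6 in sham (SD, n = 4 each). Sham replicate 3 had the dimmest array, at 225. The percentile did not overlap between IRI day 3 (665 to 743) and sham (225 to 394). A probe called lower in IRI day 3 is lower relative to its array and need not have a lower unscaled signal. Unscaled signals were not tested. Levels of different probes are not comparable, so the order of levels is given across groups within a probe. Differences were tested with limma on all 12 arrays, with p adjusted by the Benjamini-Hochberg method over all 21064 probes. The p-values measure the spread between these rats. In tissue from a whole kidney, fewer cells of a type and less RNA per cell cannot be told apart. Injury was visible on every injured array: the summed signal of 7 tubular injury markers, in multiples of the 75th percentile, ran from 9.49 to 35.1 in IRI day 7 and from 44.1 to 52.8 in IRI day 3, against 1.78 to 2.40 in sham.

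Against sham, 7 of the 10 probes were lower in IRI day 3 and none was higher (limma; 0 at an unadjusted p under 0.05). The 7 read Aqp1, Aqp2, Aqp3, Aqp8, Aqp11, Avpr2 and, of the Aqp4 probes, the middle one. Of all probes tested, 56.5% passed in this comparison, 32% of them lower and 24.5% higher counted over all probes. The median log2 difference was -1.07 for the 10 probes and -0.11 for all probes. For 6 of the 10, every IRI day 3 array was below every sham array. Of all probes, 50.9% had no overlap between the groups, 28.5% lower and 22.4% higher.

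In IRI day 7 against sham, 5 of the 10 probes passed, where 18.3% of all probes did. The stop-codon and 3′-most probes of Aqp4 were higher, against 8.05% of all probes, and Aqp1, Aqp7 and Aqp11 were lower, against 10.3% of all probes. The 3′-most Aqp4 probe passed the filter on dim signals only through IRI day 7. The median was 0.41 for the 10 probes and -0.06 for all. The groups did not overlap for Aqp2 and the 3′-most Aqp4 probe, both higher in IRI day 7, or for Aqp1 and Aqp11, both lower, where 21.3% of all probes had no overlap (8.97% higher and 12.3% lower). Leaving out single arrays gave between 1 and 5 passing probes. It was 1 without sham replicate 1, without sham replicate 2 or without IRI day 7 replicate 1, namely the 3′-most Aqp4 probe. It was 2 without IRI day 7 replicate 2 or without IRI day 7 replicate 3, and 3 without sham replicate 4.

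In IRI day 7 against IRI day 3, 9 of the 10 probes passed, where 30.8% of all probes did. Avpr2, Aqp1, Aqp2, Aqp3, Aqp8 and all 3 Aqp4 probes were higher, against 17.1% of all probes, and Aqp7 was lower, against 13.6% of all probes. The median was 1.76 for the 10 probes and 0.03 for all. The groups did not overlap for 7 probes that were higher in IRI day 7 and for Aqp7, which was lower, where 35.6% of all probes had no overlap (17.8% in each direction). The comparisons share arrays, so a level that was low in IRI day 3 appears in both comparisons that use that group.

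**Figure D1:**
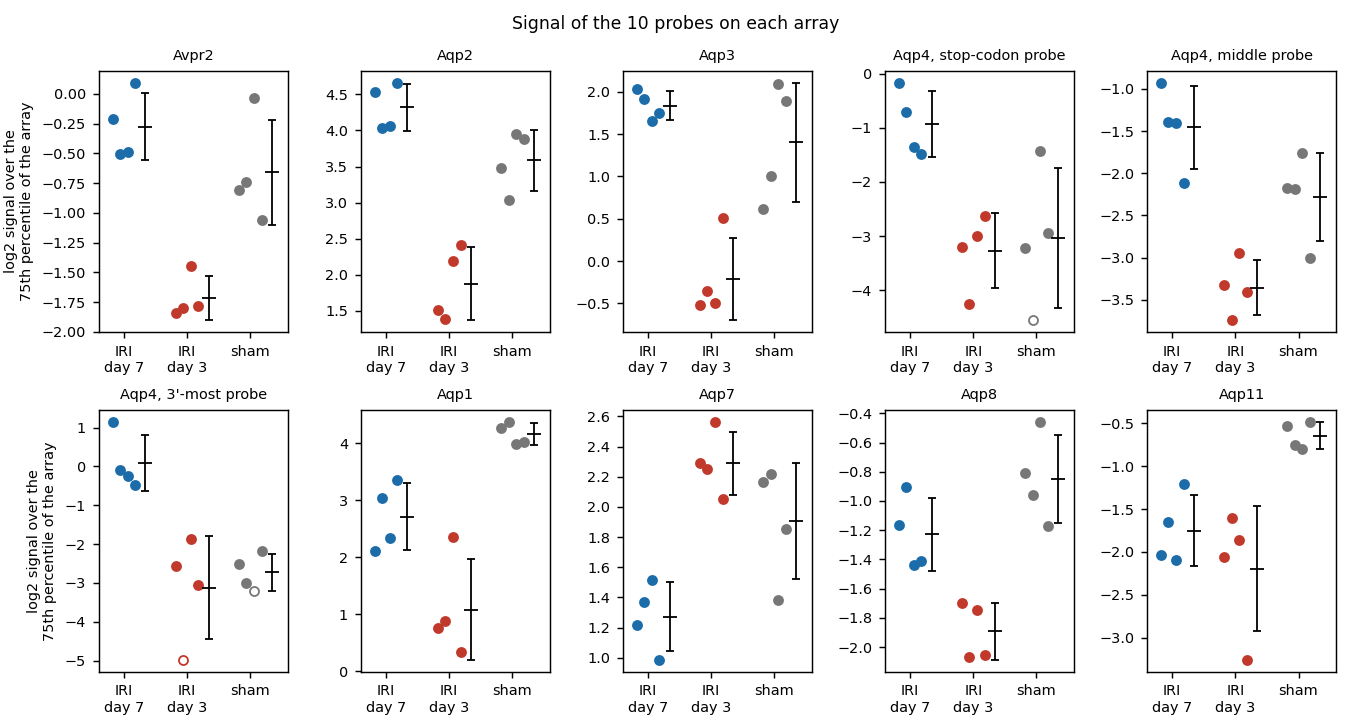
Level of each of the 10 probes on each array, as log2 signal over the array's 75th percentile, for IRI day 7, IRI day 3 and sham (4 arrays each). Bars are the mean ± SD and open circles are arrays where the probe was not well above background. The 4 IRI day 3 arrays lie below all IRI day 7 arrays for Avpr2, Aqp2, Aqp3, Aqp8 and the 3 Aqp4 probes, and above them for Aqp7.

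Avpr2, which starts the cascade that moves AQP2 to the membrane, was lowest in IRI day 3. Its level was -0.21, -0.50, -0.49 and 0.10 in IRI day 7, -1.84, -1.80, -1.44 and -1.78 in IRI day 3, and -0.81, -0.74, -0.03 and -1.06 in sham. All IRI day 3 arrays lay below every array of both other groups, and IRI day 7 overlapped sham. Avpr2 was 2.08-fold lower in IRI day 3 than in sham (log2 difference -1.06, SE 0.22, limma adjusted p = 0.00177) and 2.72-fold higher in IRI day 7 than in IRI day 3 (1.44, SE 0.22, adjusted p = 0.00145). IRI day 7 minus sham was 0.38 (95% interval -0.10 to 0.87, adjusted p = 0.25). Within the 3 slides, IRI day 3 minus sham ran from -1.77 to -0.51.

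Aqp2, the vasopressin-regulated water channel of principal cells, was lowest in IRI day 3 and highest in IRI day 7. Its level was 4.54, 4.03, 4.06 and 4.66 in IRI day 7, 1.51, 1.39, 2.19 and 2.42 in IRI day 3, and 3.48, 3.03, 3.95 and 3.87 in sham. No array of any group overlapped another group. Aqp2 was 3.27-fold lower in IRI day 3 than in sham (log2 difference -1.71, SE 0.28, limma adjusted p = 0.000351) and 5.45-fold higher in IRI day 7 than in IRI day 3 (2.45, SE 0.28, adjusted p = 0.000329). IRI day 7 minus sham was 0.74 (95% interval 0.13 to 1.35, limma adjusted p = 0.0861), which missed the threshold. That last comparison passed in 4 of 27 alternatives. Its adjusted p was 0.0251 with scaling to total signal and 0.0322 with normexp without spots below their local background. It was 0.0478 with the replicate number as a block and 0.0484 with a variance trend. The other 23 alternatives did not pass, among them all 12 that left out 1 array, and their adjusted p reached 0.429. Within slides, IRI day 3 minus sham ran from -2.56 to -1.07, and IRI day 7 minus IRI day 3 from 1.85 to 3.21.

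Aqp3, the channel of the blood-side membrane of principal cells, was read by 10 copies of its probe on each array. Its level was 2.03, 1.91, 1.66 and 1.75 in IRI day 7, -0.51, -0.36, -0.49 and 0.51 in IRI day 3, and 0.62, 1.0002, 2.10 and 1.89 in sham. The sham arrays spread widely (SD 0.71) and overlapped IRI day 7, whose SD was 0.17, while every IRI day 3 array was lower than both. The SD between copies within an array was at most 0.14, after 8 outlier spots over all arrays were left out. Aqp3 was 3.06-fold lower in IRI day 3 than in sham (log2 difference -1.62, SE 0.33, limma adjusted p = 0.00143) and 4.14-fold higher in IRI day 7 than in IRI day 3 (2.05, SE 0.33, adjusted p = 0.00172). IRI day 7 minus sham was 0.43 (95% interval -0.28 to 1.15, adjusted p = 0.385). Within slides, IRI day 3 minus sham ran from -2.46 to -0.99997.

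Aqp4, the second water channel of the blood-side membrane, was the member whose IRI day 7 level rose farthest above sham. By the 3′-most probe its level was 1.15, -0.09, -0.24 and -0.48 in IRI day 7, -2.57, -4.98, -1.87 and -3.07 in IRI day 3, and -2.51, -3.01, -3.21 and -2.17 in sham. All IRI day 7 arrays lay above all others, and the probe was not well above background on IRI day 3 replicate 2 and sham replicate 3. The 3′-most Aqp4 probe was 7.02-fold higher in IRI day 7 than in sham (log2 difference 2.81, SE 0.57, limma adjusted p = 0.00740) and 9.23-fold higher than in IRI day 3 (3.21, SE 0.57, adjusted p = 0.00285). The difference from IRI day 3 was 2.59 without IRI day 3 replicate 2 (adjusted p = 0.00461). With signals below background raised to a floor, IRI day 7 minus sham was again 2.81 and IRI day 7 minus IRI day 3 was 3.11. Plain normexp background correction gave 0.99 (limma adjusted p = 0.628) against sham and 1.87 (adjusted p = 0.117) against IRI day 3. It was the 1 alternative of 26 that ended each call. Without spots below their local background, normexp gave 2.29 against IRI day 3. The size of these differences therefore depended on the background correction. The probe was well above background on all 4 arrays only in IRI day 7, so it passed the filter on dim signals only through the group where it was high.

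By the stop-codon probe, Aqp4 was at -0.16, -0.70, -1.35 and -1.48 in IRI day 7, -3.21, -4.26, -2.99 and -2.64 in IRI day 3, and -3.21, -4.56, -1.42 and -2.94 in sham. Sham replicate 3 reached into the IRI day 7 range, and sham replicate 2 was not well above background. The stop-codon probe was 4.33-fold higher in IRI day 7 than in sham (log2 difference 2.11, SE 0.57, limma adjusted p = 0.0259). That call was lost in 6 of 25 alternatives. It was lost without sham replicate 1 (adjusted p = 0.0597), sham replicate 2 (1.60, adjusted p = 0.0515), IRI day 7 replicate 1 (0.0727) or IRI day 7 replicate 2 (0.0548). The others were plain normexp background correction (0.26, limma adjusted p = 0.778) and a fit of only the 2 groups (adjusted p = 0.0551). IRI day 7 was 5.11-fold higher than IRI day 3 (2.35, SE 0.57, adjusted p = 0.0115), a call that plain normexp ended (1.27, adjusted p = 0.254).

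By the middle probe, Aqp4 was at -0.92, -1.39, -1.40 and -2.11 in IRI day 7, -3.33, -3.75, -2.95 and -3.41 in IRI day 3, and -2.17, -2.19, -1.76 and -2.9998 in sham. This is the one Aqp4 probe that passed in IRI day 3 against sham, 2.11-fold lower (log2 difference -1.08, SE 0.30, limma adjusted p = 0.00885). The same comparison gave -0.40 (SE 0.57, adjusted p = 0.577) by the 3′-most probe and -0.24 (SE 0.57, adjusted p = 0.739) by the stop-codon probe, and leaving out IRI day 3 replicate 2 turned these to 0.22 and 0.09. The stop-codon value was 0.30 without sham replicate 3. The middle probe was 0.82 higher in IRI day 7 than in sham (95% interval 0.17 to 1.47, adjusted p = 0.0747) and 3.73-fold higher than in IRI day 3 (1.90, SE 0.30, adjusted p = 0.00159). Its IRI day 7 minus sham difference passed in 4 of 26 alternatives and not in the other 22. It passed without sham replicate 3 (0.995, adjusted p = 0.0493) and without IRI day 7 replicate 4 (1.04, adjusted p = 0.0313). It also passed with scaling to total signal (adjusted p = 0.0270) and with the replicate number as a block (0.0487).

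Whether the Aqp4 probes moved unequally was tested on their log2 difference within each array, with a two-sided exact permutation test over arrays for 3 pairs in 3 comparisons, 9 tests in all. With 4 arrays against 4 the smallest p is 0.0286. The 3′-most minus the middle probe averaged 1.54 ± 0.40 in IRI day 7 and 0.24 ± 1.02 in IRI day 3, against -0.45 ± 0.97 in sham (SD, n = 4 each; exact permutation p = 0.0286 for IRI day 7 against each other group, 0.129 after adjustment over the 9 tests). None of the 9 passed after adjustment, and the other 7 had adjusted p of at least 0.257. All 3 probes were higher in IRI day 7 than in IRI day 3, and the difference in size between them was known when the gene set was made, so it is no independent result.

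**Figure D2:**
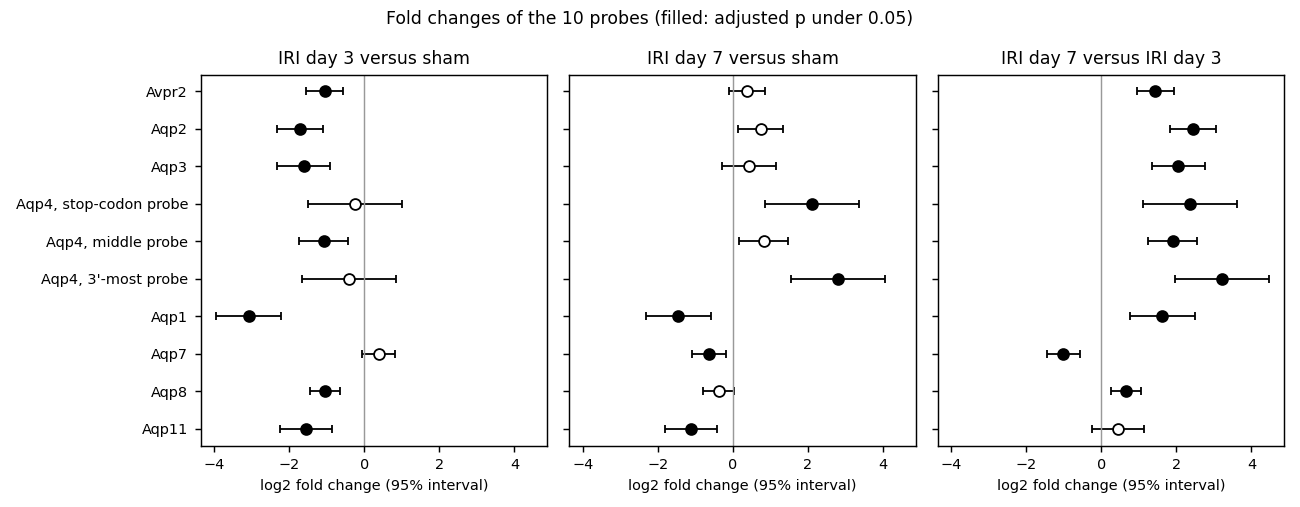
Log2 difference of each probe with its 95% interval, for IRI day 3 minus sham, IRI day 7 minus sham and IRI day 7 minus IRI day 3 (limma, 12 arrays); filled points have an adjusted p under 0.05. The filled points of IRI day 3 minus sham are all below 0, those of IRI day 7 minus sham lie on both sides, and Aqp7 runs opposite to the rest in IRI day 7 minus IRI day 3.

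Aqp1, the main water channel of the proximal tubule and thin descending limb, had the largest difference of the 10 probes in IRI day 3 against sham. Its level was 2.11, 3.05, 2.33 and 3.35 in IRI day 7, 0.76, 0.89, 2.36 and 0.33 in IRI day 3, and 4.27, 4.38, 3.99 and 4.02 in sham. Every injured array lay below every sham array, and IRI day 3 replicate 3 reached into the IRI day 7 range. Aqp1 was 8.45-fold lower in IRI day 3 than in sham (log2 difference -3.08, SE 0.39, limma adjusted p = 7.13e-05), and within slides the difference ran from -3.83 to -1.79. It was 3.09-fold higher in IRI day 7 than in IRI day 3 (1.63, SE 0.39, adjusted p = 0.0114) and 2.74-fold lower in IRI day 7 than in sham (-1.45, SE 0.39, adjusted p = 0.0261). The last call was lost without sham replicate 1 (adjusted p = 0.0594), sham replicate 2 (0.0553), IRI day 7 replicate 1 (0.0740) or IRI day 7 replicate 3 (0.0729), and with the replicate number as a block (0.0545). Plain normexp background correction also ended it (-0.97, limma adjusted p = 0.527). The 10 copies of the Aqp1 probe agreed within an SD of 0.06 on each array.

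Aqp11, an intracellular aquaporin of the proximal tubule, was low in both injured groups. Its level was -2.04, -1.66, -2.10 and -1.21 in IRI day 7, -2.06, -1.61, -1.86 and -3.26 in IRI day 3, and -0.54, -0.75, -0.80 and -0.48 in sham. The injured groups overlapped each other, and neither overlapped sham. Aqp11 was 2.93-fold lower in IRI day 3 than in sham (log2 difference -1.55, SE 0.32, limma adjusted p = 0.00155) and 2.15-fold lower in IRI day 7 than in sham (-1.11, SE 0.32, adjusted p = 0.0331). It was the one probe of the 10 that did not pass between the injured groups, where IRI day 7 minus IRI day 3 was 0.45 (95% interval -0.25 to 1.14, adjusted p = 0.298) and 0.09 without IRI day 3 replicate 4. The IRI day 7 call against sham was lost in 12 of 27 alternatives. It was lost on leaving out any 1 sham array or IRI day 7 replicate 1, 2 or 3, with adjusted p of 0.0505 to 0.0902. The others were normexp background correction (0.640), scaling to total signal (0.0729) and no filter on dim probes (0.0554). It was also lost with the replicate number (0.0715) or the scan batch (0.0528) as a block.

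Aqp8, a channel found mainly inside proximal tubule and collecting duct cells of the rat, was also lowest in IRI day 3. Its level was -1.16, -0.91, -1.44 and -1.41 in IRI day 7, -1.70, -2.07, -1.75 and -2.05 in IRI day 3, and -0.81, -0.96, -0.46 and -1.17 in sham. IRI day 3 was below both other groups without overlap, and IRI day 7 overlapped sham. Aqp8 was 2.06-fold lower in IRI day 3 than in sham (log2 difference -1.04, SE 0.19, limma adjusted p = 0.000639) and 1.58-fold higher in IRI day 7 than in IRI day 3 (0.66, SE 0.19, adjusted p = 0.0209). The second call was lost without IRI day 3 replicate 2 (adjusted p = 0.0618), IRI day 3 replicate 4 (0.0631) or IRI day 7 replicate 2 (0.0589). It was also lost with plain normexp background correction (0.50, limma adjusted p = 0.542). IRI day 7 minus sham was -0.38 (95% interval -0.79 to 0.03, adjusted p = 0.178).

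Aqp7, the aquaglyceroporin of the straight proximal tubule, was the one member lower in IRI day 7 than in IRI day 3. Its level was 1.21, 1.37, 1.52 and 0.99 in IRI day 7, 2.29, 2.25, 2.56 and 2.06 in IRI day 3, and 2.17, 2.22, 1.38 and 1.86 in sham. IRI day 7 lay below IRI day 3 without overlap, and sham overlapped both through its replicate 3. Aqp7 was 2.02-fold lower in IRI day 7 than in IRI day 3 (log2 difference -1.02, SE 0.20, limma adjusted p = 0.00477), with -1.19 to -0.66 within slides. IRI day 3 minus sham was 0.38 (95% interval -0.06 to 0.83, adjusted p = 0.128), and it passed with scaling to total signal (0.66, adjusted p = 0.0211) and with normexp background correction (0.80, adjusted p = 0.0499). IRI day 7 was 1.55-fold lower than sham (-0.63, SE 0.20, adjusted p = 0.0497). That call lies at the threshold: it was lost in 21 of 27 alternatives, among them the removal of any 1 array other than sham replicate 3.

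Across the 12 arrays, the levels of several members varied together. Pearson's r was 0.93 between Aqp2 and Aqp3, 0.92 between Aqp2 and Avpr2, and 0.73 to 0.84 between Aqp2 and the Aqp4 probes. Aqp7 against Aqp2 gave -0.86. Aqp1 went with Aqp11 (0.88) and Aqp8 (0.85), and less with Aqp2 (0.61). These values describe 12 arrays that form 3 groups, and all share the group differences given above. Of 12513 other named genes, Aqp1 was most like Kap, the androgen-regulated protein of the proximal tubule (0.995), Nr1h4, the bile acid receptor gene (0.993), Gsta4, a glutathione transferase gene (0.992), Rida (0.991) and Cyp2c23, an arachidonic acid epoxygenase gene (0.989). Aqp2 was most like Kcnj1, the apical potassium channel gene (0.977), Bsnd, the chloride channel subunit gene (0.972), Ccdc148 (0.958), Defb1, a defensin gene of distal epithelium (0.957), and Smpx (0.957). Those 5 genes were 1.04 to 2.76 lower on the log2 scale in IRI day 3 than in sham and 1.50 to 3.72 higher in IRI day 7 than in IRI day 3. They were picked for likeness to Aqp2 on the same arrays, so the direction of these differences follows from the choice.

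In the genome Aqp2 lies beside Aqp5 and Aqp6 on chromosome 7, and Aqp3 lies beside Aqp7 on chromosome 5, by a current rat gene table (GRCr8). The neighbours Aqp3 and Aqp7 were the pair that differed in direction between the injured groups, at 2.05 and -1.02. Aqp6, a channel of vesicles in intercalated cells, averaged 2.12 in IRI day 7, 0.46 in IRI day 3 and 2.34 in sham. It was 3.68-fold lower in IRI day 3 than in sham (log2 difference -1.88, SE 0.20, limma adjusted p = 2.51e-05) and 1.66 higher in IRI day 7 than in IRI day 3 (adjusted p = 0.000452). Aqp5, a channel best known from glands and lung, was 2.70-fold lower in IRI day 3 than in sham (-1.43, SE 0.29, adjusted p = 0.00152) and 1.27 higher in IRI day 7 than in IRI day 3 (adjusted p = 0.00927). Neither passed in IRI day 7 against sham, where Aqp6 differed by -0.22 and Aqp5 by -0.16. Aqp9, an aquaglyceroporin of liver, was well above background on 2 of 4 IRI day 7 arrays and on all others, and it differed from sham by -0.84 in IRI day 3 (adjusted p = 0.141) and -1.30 in IRI day 7 (adjusted p = 0.0702). Mip and Aqp12a were too dim to be tested.

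The 250 bases before the RefSeq start of Aqp2 and Aqp3 (GRCr8) are shown because both genes moved together and Aqp2 is a known target of cyclic AMP signalling and of GATA factors. Capitals mark matches to the motifs searched on both strands, which were the shorter cyclic AMP element TGACG, the GATA-factor hexamer AGATAA and the start-site box TATAAA.
Aqp2, chr7:132590036-132590285, plus strand: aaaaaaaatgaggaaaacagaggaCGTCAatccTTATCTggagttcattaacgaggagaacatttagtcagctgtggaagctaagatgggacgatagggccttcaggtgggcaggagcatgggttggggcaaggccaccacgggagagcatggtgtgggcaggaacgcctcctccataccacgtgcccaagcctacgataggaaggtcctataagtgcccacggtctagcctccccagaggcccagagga
Aqp3, chr5:61040684-61040933, minus strand: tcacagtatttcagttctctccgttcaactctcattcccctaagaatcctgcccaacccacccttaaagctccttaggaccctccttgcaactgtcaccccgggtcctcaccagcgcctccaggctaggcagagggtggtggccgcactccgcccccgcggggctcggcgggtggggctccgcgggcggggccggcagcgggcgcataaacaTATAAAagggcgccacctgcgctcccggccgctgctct
In Aqp2 a match to TGACG, read on the other strand, begins 226 bases before the start and a match to AGATAA, also on the other strand, 217 bases before it. In Aqp3 a match to TATAAA begins 38 bases before the start, and Aqp1 has one 30 bases before its own. Among 27457 promoter windows of this length, 19% held TGACG, 10% AGATAA and 13.1% TATAAA. The full element TGACGTCA, which contains TGACG, was in 1.7% of them and not in these windows of Aqp1, Aqp2, Aqp3 or Aqp11. These are letter matches and show no binding.

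Of the 11 tested genes of principal cell transport, all 11 were lower in IRI day 3 than in sham (median log2 difference -1.56) and 10 were higher in IRI day 7 than in IRI day 3 (median 2.17). The shares of all probes were 32% and 17.1% in that order. Kcnj1 differed by -1.85 from sham in IRI day 3 (limma adjusted p = 4.98e-05). The epithelial sodium channel subunit genes Scnn1a and Scnn1g differed by -2.28 and -2.33, and Prss8, a protease that activates that channel, by -2.55. In IRI day 7 against sham, Hsd11b2, which shields the mineralocorticoid receptor from glucocorticoid, was 1.30 higher and Kcnj1 0.83 higher, and no other gene of the 11 passed. The other tested probes of Kcnj1 gave 0.67 (limma adjusted p = 0.0217) and 0.48 (adjusted p = 0.410) in that comparison. The count of 2 higher was 5 with scaling to total signal, 4 by the authors' deposited value table, 3 with quantile normalization, and 1 without sham replicate 2 or without IRI day 7 replicate 1. The summed signal of these genes was 48.0 to 63.0 in IRI day 7 and 13.2 to 22.3 in IRI day 3, against 37.0 to 46.3 in sham.

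Intercalated cells are the other cell type of the collecting duct. All 10 of their tested markers were lower in IRI day 3 than in sham (median -1.85) and all 10 higher in IRI day 7 than in IRI day 3 (median 1.99), among them Rhcg, an ammonia transporter gene (-2.65 and 2.96), and Atp6v1b1, a proton pump subunit gene (-2.22 and 2.64). Slc4a1, the anion exchanger gene, was 0.82 lower in IRI day 7 than in sham (limma adjusted p = 0.0445) and was the one marker of the 10 that passed there. That call was lost on leaving out any 1 array except sham replicate 2, IRI day 3 replicate 4 and IRI day 7 replicate 2. It was also lost with quantile normalization, by the authors' deposited value table and with scaling to total signal, where 1 other marker was higher. The summed signal was 41.5 to 52.0 in IRI day 7 and 8.23 to 15.2 in IRI day 3, against 37.2 to 50.9 in sham. The genes listed for both cell types moved with the members, and how specific these genes are to those cells was not tested. The part of cell number in the levels of Aqp2, Aqp3 and Avpr2 was not tested.

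Of 12 tested collecting duct transcription factors, 3 were lower and 1 was higher in IRI day 3 than in sham, a smaller share than the 32% lower and 24.5% higher among all probes. With arrays scaled to their total signal 1 was lower and 2 were higher, and 5 were lower without sham replicate 2 or without sham replicate 4. Tfcp2l1, a regulator of collecting duct cell types, differed by -0.92 (limma adjusted p = 8.45e-05), Gata3 by -0.75 (adjusted p = 0.0182), and Elf3, an epithelial ETS factor, by 1.65. Grhl2 differed by -0.65 by its brightest probe and by 1.11 by another, so it has no settled direction. In IRI day 7 against IRI day 3, 5 of 12 were higher, with 1.41 for Gata3 and 1.06 for Tfcp2l1, and none was lower. The shares of all probes there were 17.1% higher and 13.6% lower.

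Of 17 other genes of the vasopressin and cyclic AMP pathway, 2 were higher and 4 lower in IRI day 3 than in sham. That is a smaller share than the 24.5% higher and 32% lower among all probes. The counts were 4 and 3 with scaling to total signal, and 1 to 3 were higher on leaving out single arrays. In IRI day 7 against IRI day 3, 1 was higher and 2 lower, where 17.1% of all probes were higher and 13.6% lower. Prkar2b, a regulatory subunit of protein kinase A, was not well above background on any sham or IRI day 7 array. It passed the filter on dim signals only through IRI day 3, where it was high, and it is among the genes counted above. Its signal was at least 1.32-fold higher in IRI day 3 than in sham, a bound given without a test. That bound sets the IRI day 3 mean against the lowest signal well above background on each sham array. In the same comparison the adenylyl cyclase genes Adcy5 and Adcy6 differed by -2.19 and -0.98 on the log2 scale and the phosphodiesterase gene Pde4d by -1.52. Adcy6, the cyclase best tied to vasopressin in mouse collecting duct, was 0.88 higher in IRI day 7 than in IRI day 3 (limma adjusted p = 0.00926).

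Of 22 genes of AQP2 trafficking and turnover, 6 were higher and 5 lower in IRI day 3 than in sham, close to or below the 24.5% higher and 32% lower among all probes. With scaling to total signal the counts were 12 and 2. Of the 22, 3 were higher and 5 lower in IRI day 7 than in IRI day 3, against 17.1% higher and 13.6% lower among all probes. Cdk18, a kinase linked to AQP2 degradation, was 1.96 lower in IRI day 3 than in sham and 1.15 higher in IRI day 7 than in IRI day 3. Nedd4, a ubiquitin ligase gene, was 1.60 higher and then 1.13 lower in the same comparisons. The cytoskeletal genes Tpm1 and Myh9 were 1.49 and 1.30 higher in IRI day 3 than in sham. The urea transporter genes Slc14a1 and Slc14a2 were too dim to be tested. Of the 6 other genes tested in the list of urea transport and osmolyte response, 2 were higher and 3 lower in IRI day 3 than in sham: S100a4 differed by 4.30, the aldose reductase gene Akr1b1 by 2.08 (well above background on 3 of 4 sham arrays), the inositol transporter gene Slc5a3 by -0.96 and the betaine transporter gene Slc6a12 by -0.85.

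**Figure D3:**
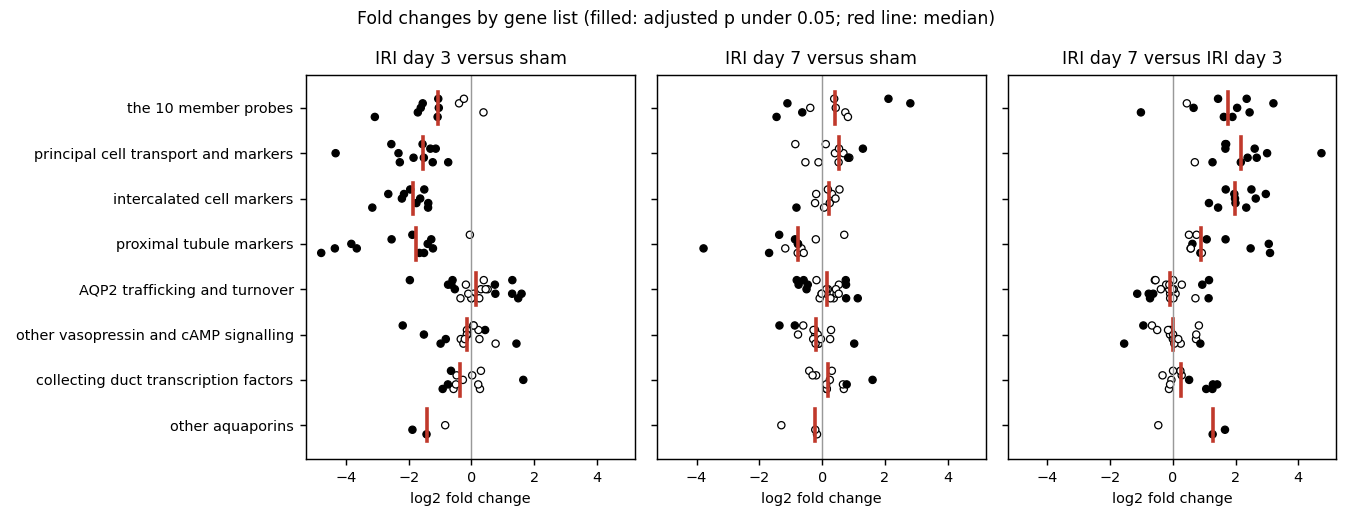
Log2 difference of the 10 probes and of each tested gene in 7 lists, for IRI day 3 minus sham, IRI day 7 minus sham and IRI day 7 minus IRI day 3; filled points have an adjusted p under 0.05 and the red line is the median of the row. Principal and intercalated cell genes lie below 0 in the first panel (medians -1.56 and -1.85) and above it in the third (2.17 and 1.99), while trafficking and cyclic AMP genes lie on both sides.

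Of 12 tested proximal tubule markers, 11 were lower in IRI day 3 than in sham (median -1.77), 5 were lower in IRI day 7 than in sham (median -0.77), and 7 were higher in IRI day 7 than in IRI day 3. The shares of all probes were 32%, 10.3% and 17.1% in that order. The count of 5 became 2 with scaling to total signal or without IRI day 7 replicate 1, 3 without sham replicate 1, sham replicate 2 or IRI day 7 replicate 3, and 8 without IRI day 3 replicate 4. The count of 7 became 4 without IRI day 3 replicate 2, IRI day 3 replicate 4 or IRI day 7 replicate 2. The organic anion transporter gene Slc22a6 differed by -4.79, Slc22a8 by -3.66, the sodium proton exchanger gene Slc9a3 by -2.55 and the dicarboxylate transporter gene Slc13a3 by -1.88, in IRI day 3 against sham. Their summed signal was 146 to 264 in IRI day 7 and 51.9 to 133 in IRI day 3, against 389 to 410 in sham, and their part in the levels of Aqp1 and Aqp11 was not tested. Aqp7, which belongs to the same tubule, did not pass in IRI day 3 against sham.

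Other cells that make AQP1 were looked at as well. Of 8 endothelial markers, 4 were lower in IRI day 3 than in sham and 3 in IRI day 7, with -1.53 and -1.11 in that order for Kdr, a VEGF receptor gene. Against sham, 32% of all probes were lower in IRI day 3 and 10.3% in IRI day 7. The endothelial sum was 10.1 to 20.3 in IRI day 7 and 9.92 to 14.4 in IRI day 3, against 19.2 to 25.0 in sham. Of 9 red cell markers 3 could be tested, and Alas2, the heme synthesis gene of red cell precursors, was lower than sham in both injured groups (-1.71 in IRI day 7, a call lost without IRI day 7 replicate 1, and -1.84 in IRI day 3). It was well above background on 2 of 4 IRI day 7 arrays, 3 of 4 IRI day 3 arrays and all sham arrays, so the size of these differences rests partly on signals at background. The red cell sum was 0.67 to 1.56 in IRI day 7 and 0.64 to 1.50 in IRI day 3, against 1.22 to 2.29 in sham. The part of these cells in the level of Aqp1 was not tested. Of 7 markers of the thick ascending limb, which lies beside the collecting duct in the medulla, 4 were lower in IRI day 3 than in sham, with -5.82 for Umod, and 1 was higher, a call lost without sham replicate 2, sham replicate 3, IRI day 3 replicate 1 or IRI day 3 replicate 3.

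Fat cells also make AQP7. Of 8 adipose markers 5 could be tested, and Plin1, Lep and Fabp4 were too dim. Cfd was higher than sham in both injured groups (3.13 in IRI day 7 and 2.72 in IRI day 3), and the other 4 passed in neither. In sham, 3 of 4 arrays had Cfd well above background. The adipose sum was 1.60 to 2.46 in IRI day 7 and 1.76 to 2.03 in IRI day 3, against 1.32 to 1.70 in sham. The part of fat cells in the level of Aqp7 was not tested.

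**Figure D4:**
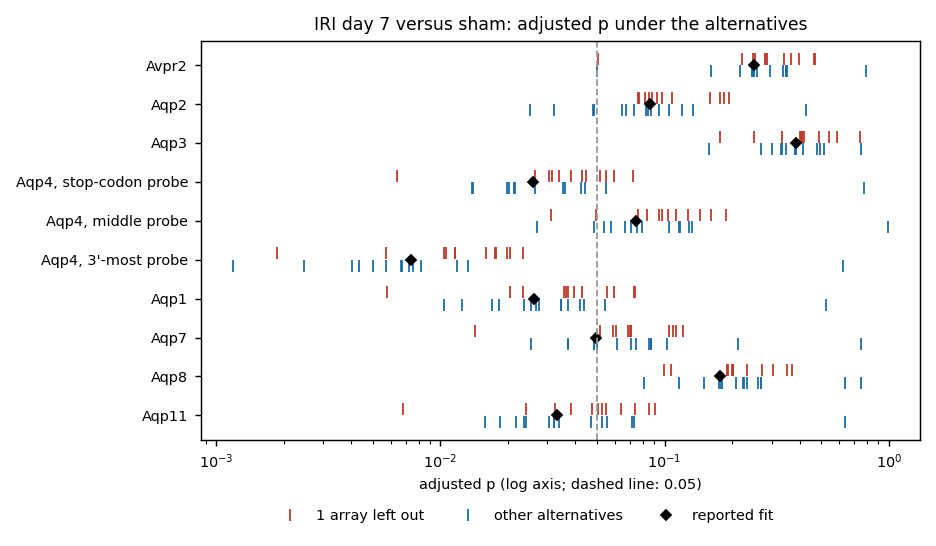
Adjusted p (log axis) of each probe in IRI day 7 against sham under every alternative setting, with 1 array left out (red) or another choice changed (blue); the diamond is the reported value and the dashed line is 0.05. The 3′-most Aqp4 probe stayed left of the line in 25 of 26 alternatives, while Aqp7 was left of it in 6 of 27. That Aqp4 probe passed the filter on dim signals only through IRI day 7, the group where it was high.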

How the data were processed

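Processed spot signals are intensity values, per the file headers made by Agilent Feature Extraction 9.5.1.1 with background subtraction and no scaling between arrays. Mean spot and local background signals, used in the alternatives with normexp, are uncorrected intensities per the file headers. Flags are 0 or 1, per the file headers. The authors' deposited value table holds log2 values. Set against the scanner values (lowest r 0.998 over 30367 probes) it proved centred on each probe's median (largest probe median 4.8e-07), so it carries no level. Its column medians were 0.01, 0.04, 0.0051 and 0.12 for IRI day 7 replicates 1 to 4, -0.11, -0.16, 0.0020 and -0.21 for IRI day 3, and -0.0011, -0.03, 0.30 and 0.01 for sham. It served as an alternative.

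From the processed signals, log2 values minus the 75th percentile of each array were taken, control and outlier spots were left out, and replicate spots were averaged (1390 probes have several). A probe was kept if in any group most of its spots were well above background on each of the 4 arrays. The fit used limma 3.58.1 (lmFit, eBayes; R 4.3.3), tested on simulated data first, with 1 mean per group and a threshold of 0.05. Genes of lists were matched by accession, symbol or synonym to a rat gene table (GRCr8) and stand for their brightest tested probe. Named from the lists are up to 4 genes with the smallest adjusted p in IRI day 3 against sham, all other aquaporins, and genes singled out after their values were seen: Hsd11b2, Atp6v1b1, Umod, and list genes named in a second comparison. Members and lists were chosen with earlier results of these data known. Nothing says more of the 4 samples of a group than that each is 1 rat's left kidney. Arrays lay on 3 slides, each with all 3 groups, scanned in 2 batches; slide and scan batch were blocks in alternatives. The labelling kit named in the labels is one for DNA, and how RNA was labelled with it is not given in the sources used. Other alternatives changed the background correction, the scaling, the filter on dim probes, the treatment of outlier spots and the variance model, or left out 1 array. Raising signals below background to a floor was chosen after seeing the data.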

Additional observations from a re-analysis of the deposited data

Results flagged for a closer look

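Of 30 sets of 4 arrays (10 probes in 3 groups), 2 held an array far from the other 3, where chance gives about 1 in 20. Aqp3 in IRI day 3 replicate 4 was at 0.51, above the other IRI day 3 arrays, and Avpr2 in IRI day 3 replicate 3 was at -1.44. Without these arrays Aqp3 (-1.86, adjusted p = 0.000845) and Avpr2 (-1.15, adjusted p = 0.00234) were still lower in IRI day 3 than in sham.

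For 9 of the 10 probes, the difference from the day 7 sham group was unequal between IRI day 7 and IRI day 3, where 30.8% of all probes passed. Since both differences use the same sham arrays, this is the comparison of the injured groups given above and no new test. With no sham group at day 3, a changed effect of injury cannot be told apart from time after the operation. IRI day 7 minus IRI day 3 was 1.44 for Avpr2, 2.45 for Aqp2 and 2.05 for Aqp3. For Aqp4 it was 2.35 by the stop-codon probe, 1.90 by the middle probe and 3.21 by the 3′-most probe. It was 1.63 for Aqp1, 0.66 for Aqp8 and -1.02 for Aqp7. Adjusted p-values by limma ran from 0.000329 for Aqp2 to 0.0209 for Aqp8.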

How the results depend on the processing

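Plain normexp background correction changed the counts most. It called 3433 probes and 3 of the 10 in IRI day 3 against sham, 92 and 0 in IRI day 7 against sham (limma; 1 higher and 1 lower at an unadjusted p under 0.05, and 1 to 6 of the 10 by other settings) and 176 and 1 in IRI day 7 against IRI day 3. On 6 arrays up to 25 spots lay below their local background, and without such spots normexp called 13374, 3906 and 8771 probes, with 7, 6 and 9 of the 10. In IRI day 7 against sham, 3 of the 10 passed with no filter on dim probes, with the scan batch as a block, or with only the 2 groups in the fit (2284 probes), and 3 of the 8 that were well above background on all 12 arrays, which leaves out 2 Aqp4 probes. Leaving out single arrays gave 2292 to 3832 probes and 1 to 5 of the 10 there (2292 without IRI day 7 replicate 3 and 2427 without IRI day 7 replicate 1), 3832 to 7398 probes in IRI day 7 against IRI day 3 (lowest without IRI day 3 replicate 4, and 4034 without IRI day 3 replicate 2 and 4221 without IRI day 7 replicate 4), and 7 of the 10 each time in IRI day 3 against sham. The sign turned for uncalled Aqp4 values: the stop-codon probe in IRI day 3 against sham gave 0.036 with scaling to total signal and -0.75 to 0.30 without single arrays, the 3′-most probe -0.81 to 0.22, the middle probe in IRI day 7 against sham -0.013 with normexp, and the 3′-most minus stop-codon difference in IRI day 3 against sham 0.055 with normexp without spots below local background. The cause was not tested.

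Same-numbered arrays of different groups did not deviate together (r -0.33 to 0.14 over 12 pairs). Arrays of different groups on the same slide had a mean r of only 0.06, so this check can miss a shared factor. Whether the numbers pair rats is therefore not settled. With the replicate block, 11399, 2726 and 5189 probes passed in IRI day 3 against sham, IRI day 7 against sham and IRI day 7 against IRI day 3, with 7, 4 and 9 of the 10. In IRI day 7 against sham the block ended the calls of Aqp1, Aqp7 (0.0852) and Aqp11 (0.0715) and brought in Aqp2 (0.0478) and the middle Aqp4 probe (0.0487). With the slide as a block 7, 4 and 9 of the 10 passed, and within slides all called values kept their direction. Scaling to total signal moved the median of all probes to 0.17 in IRI day 3 against sham and to 0.17 in IRI day 7 against sham, and the share of calls that were higher to 59.8% and 78.2%, against 43.4% and 43.9% in the reported fit (49.2% and 55.9% by the authors' value table). The number of arrays limits the precision of all values, and signals near background that of Aqp4.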
